A study of Mus musculus with 9 samples.

Results

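The liver answers inflammation by changing the plasma proteins it secretes, and 10 such acute-phase genes are described here: the 3 fibrinogen chains Fga, Fgb and Fgg, the heavy chains Itih3 and Itih4, the pentraxins Apcs and Crp, and Cp, Steap4 and Lrg1. They were chosen by symbol, with earlier results of these data known, and matched to Ensembl identifiers through the GRCm38 annotation. The gene and marker lists used below were also chosen with those results known. All 10 genes passed the filter on low counts, among 17704 genes tested of 56719 listed in each count file. The data are read counts of liver messenger RNA in 9 libraries, 3 for each of 3 groups of C57BL/6J mice. FMT-Con A mice were gavaged for 4 weeks with a faecal suspension from mice of a Con A (concanavalin A) model of autoimmune hepatitis. On the day of collection they received Con A at 10 mg/kg in the tail vein. Con A mice had PBS during the 4 weeks and the same injection of Con A. WT mice had PBS in both places. Concanavalin A, a lectin from jack beans, sets off a T cell-driven hepatitis in mice. The series was set up around the genes and signalling routes of liver self-healing. Neither the interval between injection and collection nor the age of the mice is given in the labels, and pooling of animals is not mentioned. The labels number the libraries of a group without saying more about where they come from, so the spread behind each p-value is that among libraries and may be technical.

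In the acute phase, macrophages and other cells release interleukin-6 and interleukin-1, which act on hepatocytes through STAT3, C/EBP and NF-kappaB transcription factors. Fibrinogen is the hexameric precursor of fibrin and is the classical target of interleukin-6 in the liver. Heavy chains of the inter-alpha-trypsin inhibitor family bind hyaluronan in the extracellular matrix. Apcs encodes serum amyloid P component and Crp encodes C-reactive protein, 2 pentraxins that bind damaged cells and complement. In mice Apcs is regarded as the major acute-phase pentraxin, whereas in humans it is CRP. Cp encodes ceruloplasmin, a copper-containing ferroxidase, Steap4 encodes a metalloreductase of membranes that reduces iron and copper, and Lrg1 encodes a secreted leucine-rich glycoprotein that modulates TGF-beta signalling.

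The libraries held 20513051 to 29466806 counts, and levels are given as CPM, a gene's counts relative to its library's total, scaled by edgeR's TMM factors, which ran from 0.865 to 1.08. Transcripts of the mitochondrial genome took 7.44 to 11.7% of counts in FMT-Con A, 5.03 to 9.96% in Con A and 19.6 to 22.4% in WT. A list of 24 skeletal muscle genes summed to 19800, 2080 and 19600 CPM in FMT-Con A libraries 1, 2 and 3, to 14.8, 25.6 and 2410 CPM in Con A libraries 1, 2 and 3, and to 53.9 to 66.9 CPM in WT. FMT-Con A 1 and 3 thus stood apart from every other library in muscle transcripts, and values without both are given beside the main FMT-Con A results. Those values rest on FMT-Con A 2, which at 2080 CPM was not free of muscle transcripts, nor was Con A 3 at 2410 CPM. FMT-Con A 1 and 3 were also the most alike pair within any group. Their median squared difference in counts was 2.53 times that of counting error alone. It was 9.87 for FMT-Con A 1 with 2 and 9.82 for 2 with 3. Among Con A libraries it was 6.58 to 12.7, and among WT libraries 3.06 to 4.9. The liver itself was evident in all 9 libraries. The 13 hepatocyte markers were all detected in every library and summed to 39700 to 49200 CPM in FMT-Con A, 64200 to 79000 CPM in Con A and 77800 to 90400 CPM in WT. The labels give the mice as male in one field and female in another. The Y-linked gene Ddx3y had 2676 to 6192 counts in every library, so each library held RNA of male tissue. The X-linked gene Xist had 21 to 139 counts.

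All 10 genes were higher after Con A, with or without the faecal transfer. Among all tested genes 31.2% were called higher in FMT-Con A and 32.5% in Con A livers, each against WT. In FMT-Con A livers the 10 genes were 2.37-fold to 75.3-fold above WT, and in Con A livers 3.05-fold to 113-fold above WT. Together they took 6.47, 8.13 and 6.37% of all counts in the FMT-Con A libraries, and 6.86, 5.71 and 7.7% in the Con A libraries. In the WT libraries they took 0.715, 0.679 and 0.831%. Between FMT-Con A and Con A livers 1 of the 10, Cp, passed the test, lower in FMT-Con A livers. Among all tested genes 16.8% passed, 6.26% higher and 10.6% lower. Cp did not pass without FMT-Con A 1 or without FMT-Con A 3.

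RefSeq promoter entries (build GRCm38.p6) were found for all 10 genes, and 8 are shown because the 250 bases upstream of their start hold at least 1 of 5 motifs bound by factors that are known to act on acute-phase genes in hepatocytes. Each runs 5′ to 3′ on the gene's own strand and ends before the annotated transcript start. Capitals mark matches to the core of the STAT3 interleukin-6 response element (CTGGGAA), the STAT palindrome (TTCNNNGAA), the C/EBP motif (TTNNGCAA), the HNF1 core (GTTAAT) and the NF-kappaB motif (GGG and TTTCC with any 2 bases between), searched on both strands. HNF1 is a transcription factor of hepatocytes. The stretches lie at chr3:83025903-83026075 for Fga (plus strand), chr3:83049864-83050113 for Fgb (minus strand) and chr3:83007474-83007723 for Fgg (plus strand). They lie at chr14:30886226-30886475 for Itih4 (plus strand), chr1:172895055-172895304 for Apcs (minus strand), chr3:19956804-19957053 for Cp (plus strand), chr5:7960222-7960456 for Steap4 (plus strand) and chr17:56122002-56122196 for Lrg1 (minus strand).
Fga: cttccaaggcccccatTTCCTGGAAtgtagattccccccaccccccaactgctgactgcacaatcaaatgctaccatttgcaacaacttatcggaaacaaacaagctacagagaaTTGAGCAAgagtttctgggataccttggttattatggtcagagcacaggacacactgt
Fgb: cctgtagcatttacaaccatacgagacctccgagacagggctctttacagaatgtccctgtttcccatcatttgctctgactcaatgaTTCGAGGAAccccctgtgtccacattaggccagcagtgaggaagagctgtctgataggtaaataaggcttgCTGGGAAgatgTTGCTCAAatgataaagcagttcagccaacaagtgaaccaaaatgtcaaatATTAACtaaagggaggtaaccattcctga
Fgg: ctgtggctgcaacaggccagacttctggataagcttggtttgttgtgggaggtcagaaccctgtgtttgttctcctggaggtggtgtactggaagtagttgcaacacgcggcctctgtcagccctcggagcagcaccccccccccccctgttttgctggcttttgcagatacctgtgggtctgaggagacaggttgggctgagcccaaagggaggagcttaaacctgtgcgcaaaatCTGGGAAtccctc
Itih4: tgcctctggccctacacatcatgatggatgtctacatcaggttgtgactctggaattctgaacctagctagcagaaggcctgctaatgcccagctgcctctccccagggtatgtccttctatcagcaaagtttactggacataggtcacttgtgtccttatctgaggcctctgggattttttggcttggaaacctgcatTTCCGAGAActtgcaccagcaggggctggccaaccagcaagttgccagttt
Apcs: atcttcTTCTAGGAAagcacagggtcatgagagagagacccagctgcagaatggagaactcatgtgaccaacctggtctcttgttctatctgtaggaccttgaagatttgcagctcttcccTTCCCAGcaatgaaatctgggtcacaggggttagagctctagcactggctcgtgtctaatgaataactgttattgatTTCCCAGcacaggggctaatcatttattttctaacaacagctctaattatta
Cp: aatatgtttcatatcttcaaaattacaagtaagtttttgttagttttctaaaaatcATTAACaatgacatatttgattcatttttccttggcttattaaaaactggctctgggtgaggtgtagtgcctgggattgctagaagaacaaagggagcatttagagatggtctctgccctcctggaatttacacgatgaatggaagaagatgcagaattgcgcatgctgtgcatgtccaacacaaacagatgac
Steap4: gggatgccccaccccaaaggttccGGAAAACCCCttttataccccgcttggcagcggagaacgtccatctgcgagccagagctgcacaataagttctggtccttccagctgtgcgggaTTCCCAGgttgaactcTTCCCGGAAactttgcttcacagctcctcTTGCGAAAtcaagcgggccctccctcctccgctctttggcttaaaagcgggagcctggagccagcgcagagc
Lrg1: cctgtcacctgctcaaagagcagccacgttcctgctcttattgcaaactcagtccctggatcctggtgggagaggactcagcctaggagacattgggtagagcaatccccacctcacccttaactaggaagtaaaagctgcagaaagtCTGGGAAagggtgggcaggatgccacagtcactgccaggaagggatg

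Over the 250 bases upstream of the RefSeq start, CTGGGAA was found in 5 of the 10 genes (Fgb, Fgg, Apcs, Steap4 and Lrg1), against 10.4% of the 27025 genes with an entry. The palindrome TTCNNNGAA was found in 5 (Fga, Fgb, Itih4, Apcs and Steap4), against 8.13% of genes. TTNNGCAA was found in 4 (Fga, Fgb, Cp and Steap4), against 10.8% of genes. GTTAAT was found in 3 (Fga, Fgb and Cp), against 7.49%, and the NF-kappaB motif in 1 (Steap4), against 1.65%. The palindrome reads alike on both strands and was counted once per place, and no match overlapped one of another motif in these genes. Counted from the RefSeq start, Fgg had its CTGGGAA 13 to 7 bases before it, Fgb 91 to 85 bases and Lrg1 102 to 96 bases. In Fga, Steap4 and Lrg1 the annotated start lies upstream of the RefSeq start. Their stretches shown are therefore cut to 173, 235 and 195 bases, and the Lrg1 match stands nearer to the end of its stretch. Fgb and Steap4 each held matches to 4 of the 5 motifs. The GTTAAT match of Fga and the TTNNGCAA match of Cp lie outside the stretches shown. Crp and Itih3 held none of the 5. A match describes the letters of a window and is not evidence of binding.

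**Figure D1:**
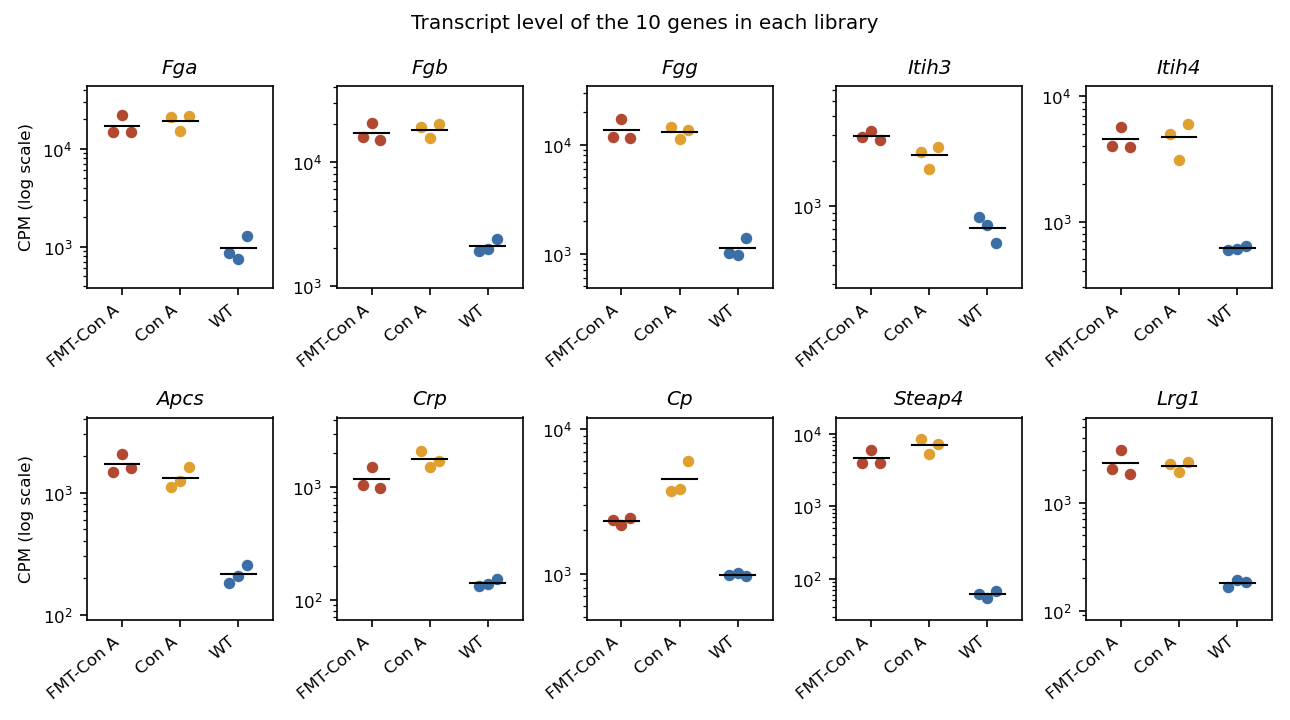
Level of each of the 10 genes in CPM (log scale, 1 panel per gene with its own range) in FMT-Con A, Con A and WT libraries; points are libraries and lines are group means. In every panel the 6 libraries of injected mice lie above the 3 WT libraries, and FMT-Con A and Con A are apart for Itih3 and Cp. For Crp they do not overlap, but FMT-Con A 2 and Con A 2 are both at 1530 CPM to 3 digits.

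Con A livers were compared with WT livers to see what the injection alone did to these genes. All 10 were higher and none overlapped WT. Of all tested genes 63.4% were called, 32.5% higher and 30.9% lower, and 69.8% had groups that did not overlap. All 10 were at least 2-fold higher, against 21.6% of all genes. Since the 10 were chosen with earlier results of these data known, their comparison with all genes is a description. The median log2 fold change was 3.33 for the 10 genes and 0.01 for all genes. Calls are by edgeR's quasi-likelihood test at an adjusted p of 0.05 over all 17704 genes. Among the 1304 genes averaging at least 100 CPM, 46% were called higher.

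The fibrinogen genes lie side by side on chromosome 3 of GRCm38. Fgg (ENSMUSG00000033860) spans 83007724 to 83015049, Fga (ENSMUSG00000028001) 83026076 to 83033627 and Fgb (ENSMUSG00000033831) 83040141 to 83049863. Fga, which encodes the alpha chain from which thrombin releases fibrinopeptide A, had 21100, 15200 and 21600 CPM in Con A livers, against 850, 754 and 1290 CPM in WT livers. All 3 Con A libraries lay above all 3 WT libraries, by 4.32 on the log2 scale (SE 0.31, edgeR adjusted p = 2.76e-06). Fgb, the beta chain, had 19000, 15400 and 20100 CPM in Con A livers and 1910, 1990 and 2390 CPM in WT livers. Its groups were again apart, with a log2 fold change of 3.12 (SE 0.23, edgeR adjusted p = 2.98e-06). Fgg, the gamma chain, had 14400, 11200 and 13500 CPM in Con A livers and 1010, 964 and 1400 CPM in WT livers, a log2 fold change of 3.54 (SE 0.26, edgeR adjusted p = 3.27e-06). Con A 2 was the lowest Con A library for each chain and WT 3 the highest WT library. The 3 genes together took 4.71, 3.95 and 5.15% of all counts in Con A livers and 0.401, 0.379 and 0.534% in WT livers. Plrg1, a splicing gene 5659 bases from Fgb that was picked after its value was seen, was 1.80 higher on the log2 scale in Con A livers (SE 0.17, edgeR adjusted p = 1.45e-05), with means of 37.5 CPM in Con A and 10.8 CPM in WT.

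The 3 chains did not rise in equal measure. Per kilobase of exon, Fga made up 37.1, 34.9 and 37.9% of fibrinogen transcripts in Con A livers, against 22.3, 20.3 and 24.8% in WT livers. Fgb made up 26.5, 28 and 27.9% in Con A livers, against 39.6, 42.3 and 36.4% in WT livers. Fgg made up 36.4, 37 and 34.2% in Con A livers, against 38, 37.4 and 38.8% in WT livers. The groups were apart for Fga, 14.2 points higher, and Fgb, 12.0 points lower in Con A livers, and for Fgg by 2.2 points. As shares of raw counts the Fgg groups overlapped, with a difference of -0.887 points (exact permutation p = 0.5). In an exact two-sided permutation test of 3 libraries against 3, the p-value per kilobase was 0.1 for each chain, the smallest this design allows, and 0.129 after Benjamini-Hochberg adjustment over 9 such tests. In FMT-Con A livers the shares were 33.4, 34.8 and 34.6% for Fga, 28.2, 25.6 and 27% for Fgb and 38.4, 39.6 and 38.4% for Fgg, so that Fga was 11.8 points above WT and Fgb 12.5 points below. Between FMT-Con A and Con A the groups were apart for Fga, 2.42 points lower, and for Fgg, 2.92 points higher in FMT-Con A livers (exact permutation p = 0.1 each, adjusted over the 9 tests 0.129). As shares of raw counts the Fga groups overlapped, at 34.8, 36.7 and 36.2% in FMT-Con A livers and 38.7, 36.3 and 39.1% in Con A livers (exact permutation p = 0.2). The Fgb shares per kilobase overlapped (exact permutation p = 0.7, adjusted over the 9 tests 0.7).

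**Figure D2:**
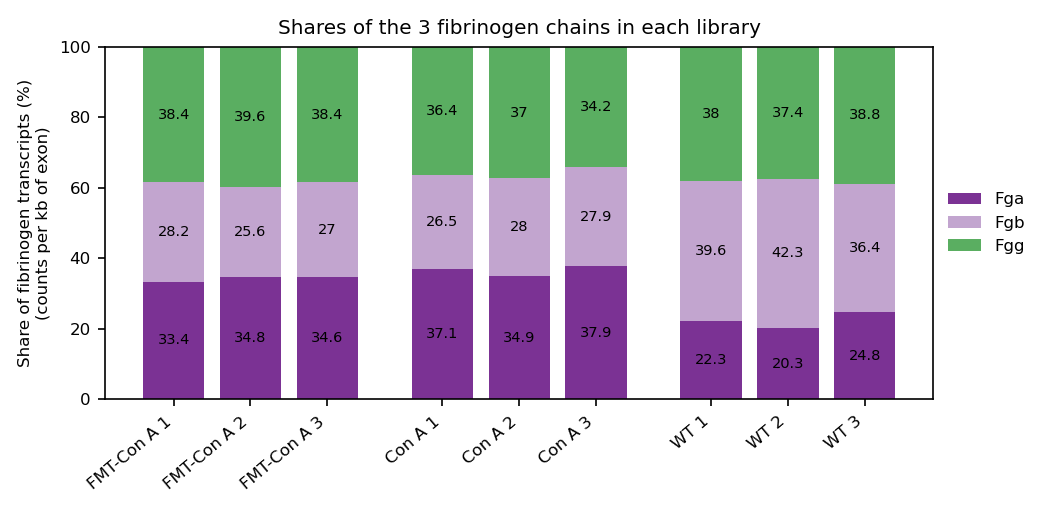
Share (%) of Fga, Fgb and Fgg in the fibrinogen transcripts of each library, from counts per kilobase of exon, with the value printed in each bar segment; FMT-Con A, Con A and WT libraries run left to right. Fga takes 33.4 to 37.9% in the 6 libraries of injected mice and 20.3 to 24.8% in WT, and Fgb takes 25.6 to 28.2% and 36.4 to 42.3%.

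Itih4 and Itih3 are neighbours on chromosome 14 (Itih4, ENSMUSG00000021922, at 30886476 to 30902353, and Itih3, ENSMUSG00000006522, at 30908572 to 30923760). Itih4, whose product circulates without the light chain bikunin, had 4970, 3080 and 6060 CPM in Con A livers and 589, 599 and 644 CPM in WT livers. The log2 fold change was 2.95 (SE 0.28, edgeR adjusted p = 1.29e-05), and the Con A libraries differed 1.97-fold among themselves. Itih3, a heavy chain that is joined to bikunin, had 2310, 1760 and 2480 CPM in Con A livers and 839, 744 and 565 CPM in WT livers. It had the smallest log2 fold change of the 10, 1.61 (SE 0.21, edgeR adjusted p = 9.38e-05), without overlap of the groups. The third gene of the cluster, Itih1, lies 5420 bases from Itih3, and with a log2 fold change of 0.40 it missed the threshold (SE 0.19, edgeR adjusted p = 0.0877), with means of 564 CPM in Con A and 428 CPM in WT. Neighbours on one chromosome thus had log2 fold changes of 2.95, 1.61 and 0.40.

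Of the inter-alpha-trypsin inhibitor and hyaluronan list, 11 of 14 genes were tested, and 5 were higher and 2 lower in Con A livers. Beside this and the further list counts of Con A against WT stand 32.5% of all genes called higher and 30.9% lower. Cd44, the main hyaluronan receptor, averaged 30.1 ± 3.86 CPM in Con A and 5.53 ± 0.789 CPM in WT livers (SD, n = 3 each), and the hyaluronan-binding proteoglycan Vcan was 4.96 higher on the log2 scale. The hyaluronidases Hyal1 and Hyal2 fell by 3.13 and 1.81 on the log2 scale. These 4 had the lowest edgeR p-values of the list, with adjusted p from 1.61e-06 to 3.25e-05. The median log2 fold change of the 11 was 0.93, and without Con A 2 the count of higher genes was 8.

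The pentraxin genes lie on chromosome 1, Crp (ENSMUSG00000037942) at 172698055 to 172833031 and Apcs (ENSMUSG00000026542) at 172893961 to 172895041. Apcs had 1100, 1250 and 1610 CPM in Con A livers and 182, 208 and 257 CPM in WT livers, a log2 fold change of 2.61 (SE 0.23, edgeR adjusted p = 7.62e-06). Crp had 2090, 1530 and 1730 CPM in Con A livers and 133, 137 and 153 CPM in WT livers, a log2 fold change of 3.66 (SE 0.23, edgeR adjusted p = 1.14e-06). Neither gene's groups overlapped. Per kilobase of exon the ratio of Crp to Apcs was 0.537, 0.345 and 0.303 in Con A livers and 0.206, 0.186 and 0.168 in WT livers. The annotated exons of Crp cover 3444 bases and its longest coding transcript 1695, so the ratio depends on the length used. Per kilobase of the longest coding transcript it was 1.09, 0.701 and 0.615 in Con A livers and 0.418, 0.377 and 0.342 in WT livers, and Crp was then the more abundant of the pair in Con A 1. Of the other pentraxins and their partners, 13 of 18 genes were tested, and 8 were higher and 1 lower in Con A livers, with a median of 0.65. The Fc receptors Fcgr4 and Fcgr3 rose by 3.26 and 2.17 on the log2 scale and C4bp, a complement inhibitor, by 1.11. The soluble lectin Colec11 fell by 2.72.

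Steap4 (ENSMUSG00000012428, chromosome 5, 7960457 to 7982213) had the largest change of the 10. It had 8350, 5170 and 7150 CPM in Con A livers and 61.2, 54.6 and 66.9 CPM in WT livers. The lowest Con A library was thus far above the highest WT library, and the log2 fold change was 6.82 (SE 0.31, edgeR adjusted p = 2.27e-07). By level per kilobase it ranked 29th to 43rd of all genes in the Con A libraries and 1535th to 1813th in the WT libraries. Cp (ENSMUSG00000003617, chromosome 3, 19957054 to 20009145) had 3730, 3860 and 6040 CPM in Con A livers and 977, 1010 and 960 CPM in WT livers, without overlap. Its log2 fold change was 2.21 (SE 0.21, edgeR adjusted p = 1.55e-05), and Con A 3 was the highest library. Lrg1 (ENSMUSG00000037095, chromosome 17, 56119678 to 56122001) had 2290, 1920 and 2370 CPM in Con A livers and 165, 192 and 183 CPM in WT livers. Its log2 fold change was 3.61 (SE 0.23, edgeR adjusted p = 1.4e-06).

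Of the copper, iron and metalloreductase list, 16 of 19 genes were tested, and 10 were higher and 4 lower in Con A livers, with a median of 1.09. Slc11a2, an importer of ferrous iron, averaged 222 ± 35.3 CPM in Con A and 31.1 ± 3.78 CPM in WT livers (SD, n = 3 each). Cyb561, which encodes the transmembrane cytochrome b561, averaged 33.9 ± 13.7 CPM in Con A and 0.197 ± 0.114 CPM in WT livers. Steap1, of the same family as Steap4, had 423 counts over the Con A libraries and 3 over the WT libraries, a ratio of 148 with a 95% exact interval of 50.4 to 721 that covers counting error only. Cyb561 and Steap1 were near 0 in WT livers and could pass the filter on low counts only through the injected groups. The size of either rise is therefore poorly measured. Atp7b, the transporter that loads copper onto ceruloplasmin, fell by 1.84 on the log2 scale (SE 0.15, edgeR adjusted p = 4.71e-06), with means of 8.75 CPM in Con A and 31.4 CPM in WT. Of 11 genes linked to LRG1 through TGF-beta signalling and endothelium, 6 were higher and 1 lower, with a median of 0.72. Tgfb1, the cytokine itself, rose by 1.63 on the log2 scale, its receptor Acvrl1 by 1.23, and the signal transducers Smad1 and Smad5 by 1.14 and 1.06. Eng, the co-receptor endoglin, was the one that fell, by 0.88, and is named after its value was seen.

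Genes of the upstream pathway moved in the same comparison. Of 23 interleukin-6 and interleukin-1 signalling genes, 19 were higher and 3 lower in Con A livers, and the median log2 fold change was 2.44. Osmr, the oncostatin M receptor, averaged 40.9 ± 6.15 CPM in Con A and 3.27 ± 0.405 CPM in WT livers (SD, n = 3 each). Cebpd, a C/EBP factor, averaged 63 ± 3.96 CPM in Con A and 3.02 ± 1.57 CPM in WT livers. The NF-kappaB subunit Rela rose by 2.44 and the kinase Jak2 by 2.30 on the log2 scale. Il6 itself had 122 counts over the Con A libraries and 3 over the WT libraries, a ratio of 42.7 (95% exact interval 14.3 to 210, counting error only). Lif had 2 counts over the WT libraries. Both genes could pass the filter on low counts only through the injected groups, so neither could have been called lower. Il6ra, which encodes the ligand-binding interleukin-6 receptor of hepatocytes, averaged 127 ± 4.1 CPM in Con A and 133 ± 22.4 CPM in WT livers and missed the threshold, at -0.07 on the log2 scale (edgeR adjusted p = 0.773). Of 20 other hepatic acute-phase genes 19 were higher and none lower, with a median of 4.97. Saa2 and Saa3, which encode serum amyloid A, and Lcn2, an iron-sequestering lipocalin, rose by 8.88, 8.87 and 9.01 on the log2 scale, more than any of the 10 genes. Saa2 shares much of its sequence with Saa1, and how reads of such copies were assigned is not given in the sources used here. Of 17 genes that act on fibrinogen, 14 were higher and 1 lower, with a median of 2.75. Cpb2, a carboxypeptidase that slows fibrin lysis, rose by 2.75 on the log2 scale, and Fgl2, a fibrinogen-like prothrombinase, by 3.12.

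Other cells can express some of these genes. The 12 neutrophil markers summed to 288 to 490 CPM in Con A livers and 9.83 to 15.1 CPM in WT livers. All 11 that were tested were higher, but a marker near 0 in WT livers could pass the filter on low counts only through the injected groups. Such a marker could not have been called lower, so this count is no support. Ly6g and Ltf, both defining neutrophil markers, were at 0 in WT 2. Neutrophils are known to contain Lrg1 protein. The T and NK cell markers summed to 46.8 to 81.6 CPM in Con A and 8.79 to 10.6 CPM in WT livers. The part of these cells in the members' levels was not tested, and in whole tissue fewer cells of a type and less RNA per cell cannot be told apart.

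**Figure D3:**
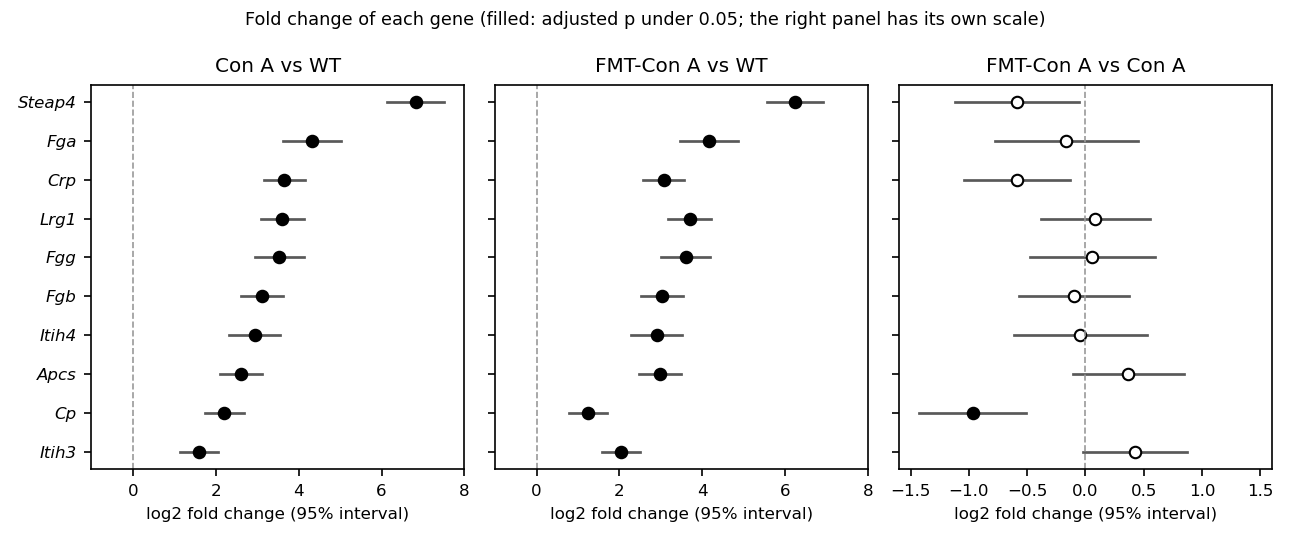
Log2 fold change of each gene with its 95% interval in each of the 3 comparisons, 1 panel each; filled points have an edgeR adjusted p under 0.05. All 10 are filled and right of 0 in both panels against WT, Steap4 farthest, and in the panel of FMT-Con A against Con A only Cp is filled, at -0.97.

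FMT-Con A livers were compared with Con A livers to see what the 4 weeks of faecal transfer changed under the same injection. Of the 10 genes, 1 was called, Cp, which was lower, where 16.8% of all genes were called, 6.26% higher and 10.6% lower. The groups did not overlap for 3 of the 10 (Itih3, Crp and Cp), against 32.7% of all genes. Neither count is high beside its background. The median log2 fold change of the 10 was -0.07, and of all genes -0.01, with 4 estimates above 0 and 6 below. Without FMT-Con A 1 and 3 together, 0 of the 10 were called, with 99 of all genes called. The estimates in that fit, which rests on FMT-Con A 2 alone, were 0.18 for Fga, 0.17 for Fgb, 0.41 for Fgg, 0.54 for Itih3, 0.28 for Itih4, 0.64 for Apcs and 0.49 for Lrg1. They were -0.22 for both Crp and Steap4 and -1.06 for Cp, and Fga, Fgb and Itih4 thus changed sign.

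Cp had 2370, 2180 and 2430 CPM in FMT-Con A livers, against 3730, 3860 and 6040 CPM in Con A livers. All 3 FMT-Con A libraries were below all 3 Con A libraries, and they differed among themselves only 1.11-fold. Cp fell by 0.97 on the log2 scale (95% interval -1.43 to -0.51, edgeR adjusted p = 0.0159). The call was lost without FMT-Con A 1 (-0.97, edgeR adjusted p = 0.0697), without FMT-Con A 3 (-0.99, edgeR adjusted p = 0.0613) and without both (-1.06, edgeR adjusted p = 0.186), while the estimate stayed of the same size. It was also lost when the fit held these 2 groups alone (-0.93, edgeR adjusted p = 0.0613). Without Con A 3, the highest library, the estimate was -0.70 (edgeR adjusted p = 0.0231), and with the skeletal muscle genes left out of the fit it was -0.94 (edgeR adjusted p = 0.019). Cp remained above WT in FMT-Con A livers, where WT had 977, 1010 and 960 CPM, with a log2 fold change of 1.25 (SE 0.21, edgeR adjusted p = 0.000668).

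Crp and Steap4 had estimates in the same direction that did not pass. Crp had 1040, 1530 and 992 CPM in FMT-Con A livers and 2090, 1530 and 1730 CPM in Con A livers, with FMT-Con A 2 and Con A 2 next to each other. Its log2 fold change was -0.59 (95% interval -1.04 to -0.13, edgeR adjusted p = 0.0731). Steap4 had 3940, 5930 and 3900 CPM in FMT-Con A livers and 8350, 5170 and 7150 CPM in Con A livers, and the groups overlapped. Its log2 fold change was also -0.59 (95% interval -1.12 to -0.05, edgeR adjusted p = 0.115). Without FMT-Con A 2 both passed, each at -0.80 (edgeR adjusted p = 0.0128 for Crp and 0.0295 for Steap4), and DESeq2 called both with all libraries (adjusted p = 0.02 for Crp and 0.0445 for Steap4). Without FMT-Con A 1 and 3 both estimates shrank to -0.22 (edgeR adjusted p = 0.68 for Crp and 0.756 for Steap4). Without Con A 1 they were -0.44 for Crp and -0.41 for Steap4 (edgeR adjusted p = 0.257 for Crp and 0.365 for Steap4).

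Itih3 leaned the other way. It had 2880, 3170 and 2740 CPM in FMT-Con A livers and 2310, 1760 and 2480 CPM in Con A livers, without overlap, at a log2 fold change of 0.42 (95% interval -0.02 to 0.87, edgeR adjusted p = 0.165). Apcs had 1460, 2060 and 1600 CPM in FMT-Con A livers and 1100, 1250 and 1610 CPM in Con A livers, at a log2 fold change of 0.37 (95% interval -0.11 to 0.84, edgeR adjusted p = 0.248). Scaled by library totals without TMM factors, which moved the median of all genes by 0.19 on the log2 scale, Itih3 passed as higher (0.62, edgeR adjusted p = 0.0454).

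The fibrinogen chains, Itih4 and Lrg1 had estimates close to 0. Fga had 14800, 21900 and 15000 CPM in FMT-Con A livers, a log2 fold change from Con A of -0.16 (95% interval -0.78 to 0.45). Fgb had 15800, 20400 and 14900 CPM in FMT-Con A livers (-0.10, 95% interval -0.57 to 0.38), and Fgg had 11800, 17300 and 11600 CPM (0.06, 95% interval -0.47 to 0.59). FMT-Con A 2 was the highest library of its group for each chain, and the groups overlapped. Itih4 had 4040, 5720 and 3940 CPM in FMT-Con A livers (-0.04, 95% interval -0.62 to 0.53). Lrg1 had 2060, 3070 and 1850 CPM (0.09, 95% interval -0.38 to 0.55). Their edgeR adjusted p-values ran from 0.706 to 0.924, and their intervals reached as far as -0.78 and 0.59. The signs of these 5 estimates turned in some settings, which are given with the other alternatives.

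Ratios within a library show the same genes without any scaling between libraries. They were chosen after the values had been seen and are given as descriptions, with no test. The ratio of Crp to Apcs was 0.201, 0.209 and 0.175 in FMT-Con A livers, below 0.537, 0.345 and 0.303 in Con A livers and across the range of 0.168 to 0.206 in WT livers. The ratio of Cp to Itih3 was 0.313, 0.261 and 0.337 in FMT-Con A livers, 0.615, 0.833 and 0.928 in Con A livers, and 0.443, 0.514 and 0.646 in WT livers. The ratio of Steap4 to Lrg1 was 0.853, 0.86 and 0.942 in FMT-Con A livers, 1.63, 1.2 and 1.35 in Con A livers, and 0.165, 0.127 and 0.163 in WT livers. The ratio of Itih4 to Itih3 was 1.38, 1.78 and 1.42 in FMT-Con A livers and 1.73 to 2.41 in Con A livers, which overlapped.

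**Figure D4:**
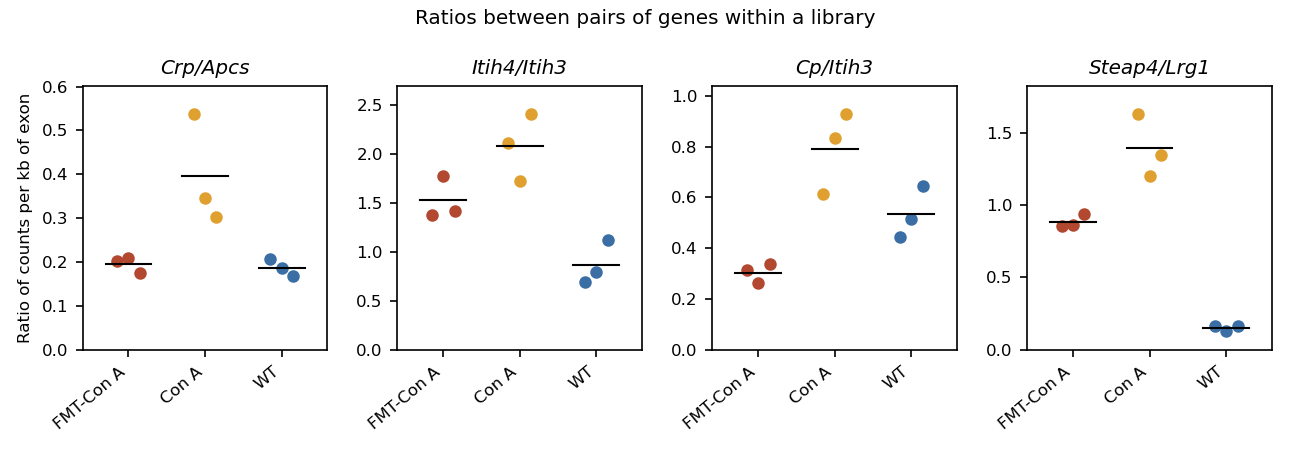
Ratio of counts per kilobase of exon between 4 pairs of genes in each library of FMT-Con A, Con A and WT; points are libraries and lines are group means. Crp over Apcs lies at 0.175 to 0.209 in FMT-Con A and 0.303 to 0.537 in Con A, and Cp over Itih3 at 0.261 to 0.337 and 0.615 to 0.928.

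The pathway upstream of the 10 genes was looked at in the same way. Of the 23 interleukin-6 and interleukin-1 signalling genes none was called higher and 10 were lower in FMT-Con A livers. Of all genes 6.26% were called higher and 10.6% lower. The median log2 fold change of the 23 was -0.62, beside -0.01 for all genes. Nfkb1, an NF-kappaB subunit, averaged 64.5 ± 11.9 CPM in FMT-Con A and 135 ± 12.4 CPM in Con A livers (SD, n = 3 each). Jak2 averaged 33.2 ± 2.51 CPM in FMT-Con A and 65.5 ± 15.8 CPM in Con A livers, and the cytokines Il11 and Il1a fell by 1.86 and 1.07 on the log2 scale. Il6, singled out after its value was seen, fell by 1.71 (SE 0.45, edgeR adjusted p = 0.0308), at 0.584 ± 0.149 CPM in FMT-Con A and 1.94 ± 0.869 CPM in Con A livers. The count of 10 was 3 without FMT-Con A 1, 4 without FMT-Con A 3, 5 without Con A 1 and 1 without FMT-Con A 1 and 3 together, with a median of -0.54 in that last fit, and without FMT-Con A 2 there was 1 called higher. Socs3, a target of STAT3 singled out for that reason, averaged 216 ± 37 CPM in FMT-Con A and 228 ± 79.3 CPM in Con A livers, and its log2 fold change was -0.08 (edgeR adjusted p = 0.88). The 2 comparisons with Con A share its libraries, so a low value here and a high one against WT are not independent.

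**Figure D5:**
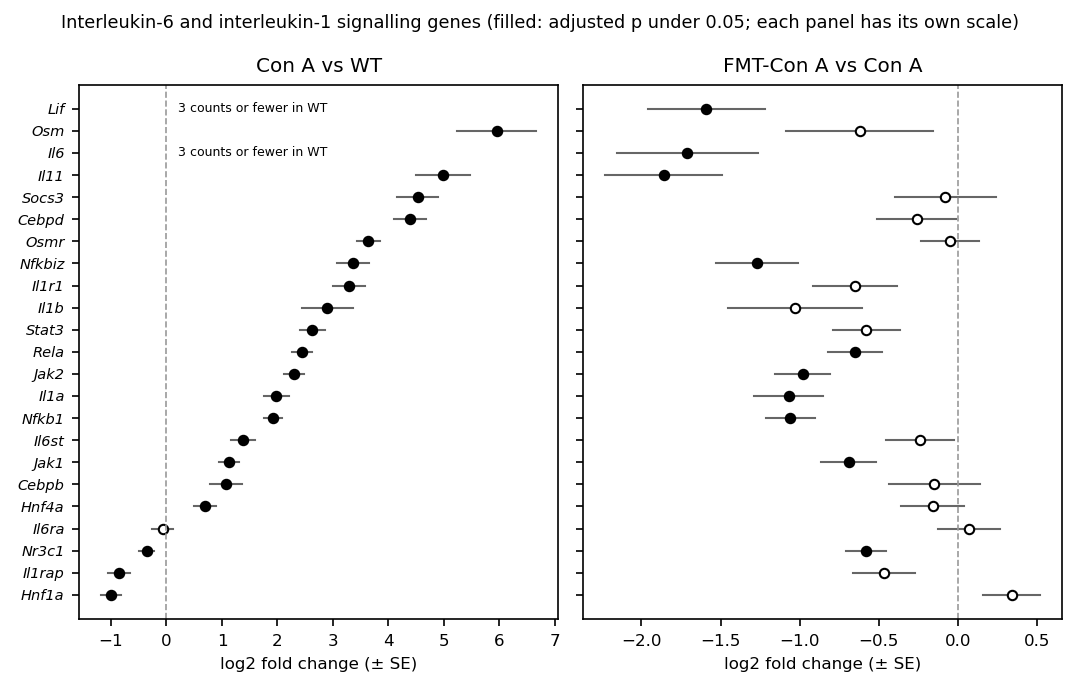
Log2 fold change with SE of 23 interleukin-6 and interleukin-1 signalling genes of Con A livers over WT and of FMT-Con A livers over Con A, each panel with its own scale; filled points have an edgeR adjusted p under 0.05. Of the 23, 19 were higher in Con A livers than in WT, and 10 were lower in FMT-Con A than in Con A livers; no fold against WT is drawn for Il6 and Lif, which had 3 and 2 counts over the WT libraries.

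The other lists had 1 to 5 called genes each, where 6.26% of all genes were called higher and 10.6% lower. Of the 20 other hepatic acute-phase genes 1 was higher and 2 were lower in FMT-Con A livers, with a median log2 fold change of 0.07. A2m, an inhibitor of proteases, rose by 1.82 on the log2 scale, and the iron hormone gene Hamp fell by 0.98. Of the 17 genes that act on fibrinogen (median -0.24) 2 were higher, A2m and F13a1, a subunit of the clot-stabilising factor XIII (1.66, edgeR adjusted p = 0.0451). The 3 that were lower included F13b, the other subunit of factor XIII (-1.26, edgeR adjusted p = 0.0236), and Itgb3, a chain of the fibrinogen receptor of platelets (-1.20, edgeR adjusted p = 0.00763). Of the 16 copper and iron genes (median -0.34) 3 were lower and none higher: the iron exporter Slc40a1 fell by 1.20, the transferrin receptor Tfrc by 0.80 and Slc11a2 by 0.61. Of the 11 hyaluronan-related genes (median -0.03) Hyal1 and Hyal2 rose by 1.73 and 0.69, and Itih2, a heavy chain like Itih3, fell by 0.86 (SE 0.19, edgeR adjusted p = 0.0165). Of the 13 pentraxin partners (median -0.42) Colec11 fell by 1.43, and of the 11 LRG1 partners (median 0.05) Adgrl2 rose by 0.68 and the receptor Tgfbr1 fell by 0.50. Without FMT-Con A 1 and 3 none of these 3 last lists, nor that of copper and iron, had a gene called, while the other acute-phase list and the fibrinogen list had 1 gene higher each.

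These small counts, and the medians, depended on single libraries. With 1 library left out, the median ran from -0.68 (without FMT-Con A 2) to -0.24 (without FMT-Con A 3) for the pentraxin list, with -0.26 without Con A 2, and it was 0.03 without FMT-Con A 1 and 3. It ran from -0.37 (without FMT-Con A 2) to -0.15 (without Con A 1 or FMT-Con A 3) for the genes acting on fibrinogen, and was -0.07 without FMT-Con A 1 and 3. For 3 lists it changed sign, with a range of -0.20 to 0.12 for the hyaluronan list, -0.15 to 0.19 for the other acute-phase list and -0.01 to 0.15 for the LRG1 list. Without FMT-Con A 1 and 3 these 3 medians were -0.68, 0.41 and -0.26. Without FMT-Con A 2 the pentraxin list had 8 genes lower, and without FMT-Con A 1, FMT-Con A 3 or Con A 1 it had none, with 2 lower without Con A 3 and 1 higher without Con A 2. The copper and iron list had no gene lower without FMT-Con A 1, 1 without FMT-Con A 3 or Con A 1, and 1 higher without FMT-Con A 2. The other acute-phase list had 5 lower without FMT-Con A 2, 1 lower without FMT-Con A 1, FMT-Con A 3 or Con A 1, and 3 higher without Con A 2. The list of genes acting on fibrinogen had 1 higher without FMT-Con A 1, FMT-Con A 3, Con A 1 or Con A 2, and 5 lower without Con A 2. In the hyaluronan list 1 gene was higher without any one FMT-Con A library, Con A 1 or Con A 3. There 3 were lower without Con A 2, and none without FMT-Con A 1, FMT-Con A 3 or Con A 1. In the LRG1 list none was lower without FMT-Con A 1, FMT-Con A 3, Con A 1 or Con A 3, and 3 were lower without Con A 2. None of that list was higher without FMT-Con A 3 or Con A 1, and 2 were higher without FMT-Con A 2.

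Marker levels of 6 cell types are given for this comparison, in which 6.26% of all genes were called higher and 10.6% lower. Hepatocyte markers summed to 39700 to 49200 CPM in FMT-Con A livers and 64200 to 79000 CPM in Con A livers, and 3 of 13 were lower with none higher. Neutrophil markers summed to 213 to 344 CPM in FMT-Con A livers and 288 to 490 CPM in Con A livers. These sums overlapped, and 2 of the 11 neutrophil markers tested were lower. T and NK cell markers summed to 21 to 26.8 CPM in FMT-Con A livers and 46.8 to 81.6 CPM in Con A livers. Kupffer cell and macrophage markers summed to 102 to 188 CPM in FMT-Con A livers and 217 to 247 CPM in Con A livers. All markers of these 4 lists were detected in all 6 libraries. Sinusoidal endothelium markers summed to 150 to 213 CPM in FMT-Con A livers and 164 to 236 CPM in Con A livers, which overlapped. Adipocyte markers leaned the other way, at 274 to 475 CPM in FMT-Con A livers and 210 to 311 CPM in Con A livers. Their sums overlapped too, and 1 of 8 was called higher with none lower. The part of cell composition in the difference of Cp, and of cell composition and muscle transcripts in those of the lists, was not tested.

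FMT-Con A livers were last set against WT livers. All 10 genes were higher without overlap of the groups, where 59% of all genes were called, 31.2% higher and 27.9% lower, and 69.1% did not overlap. All 10, chosen with earlier results known, were at least 2-fold higher, against 19.1% of all genes. The median log2 fold change was 3.05, and 0.03 for all genes. Steap4 again had the largest at 6.24 (SE 0.30), followed by Fga at 4.16 (SE 0.31), Lrg1 at 3.69 (SE 0.23) and Fgg at 3.59 (SE 0.27). Crp was at 3.07, Fgb at 3.02, Apcs at 2.98, Itih4 at 2.90 and Itih3 at 2.03, and Cp had the smallest at 1.25. Their edgeR adjusted p-values ran from 4.93e-07 for Steap4 to 0.000668 for Cp. All 10 were also called higher without FMT-Con A 1 and 3 together, at 1.15 for Cp to 6.60 for Steap4. Of the interleukin-6 and interleukin-1 genes 19 were higher and 3 lower (median 1.79), of the other acute-phase genes 18 higher and 1 lower (median 4.67), and of the genes acting on fibrinogen 11 higher and 2 lower (median 1.79). The hyaluronan list had 5 higher and 2 lower (median 0.20, and 0.58 without FMT-Con A 2), and the pentraxin list 7 higher and 1 lower (median 0.57). The copper and iron list had 8 higher and 4 lower (median 0.67), and the LRG1 list 7 higher and 1 lower (median 0.84). Without FMT-Con A 1, FMT-Con A 3 or any one WT library the counts of lower genes were 0 on the acute-phase list and 1 on the list acting on fibrinogen, and the pentraxin list had 3 lower without FMT-Con A 2. Without FMT-Con A 1 and 3 the signalling list had 14 higher and 3 lower, the LRG1 list 4 higher and 2 lower, and the hyaluronan list 1 lower, and the pentraxin median was 0.88.

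By level per kilobase of exon, Fga, Fgg and Fgb were the 3 most abundant of the 10 genes in both injected groups. They averaged 5720 ± 1340, 6490 ± 1550 and 4470 ± 778 CPM per kb in FMT-Con A livers. In Con A livers they averaged 6410 ± 1190, 6230 ± 789 and 4770 ± 646 CPM per kb, and in WT livers 320 ± 94.7, 537 ± 115 and 550 ± 67.9 CPM per kb (SD, n = 3 each). Within each FMT-Con A library Fgg was above Fga, whereas in Con A the order of Fga and Fgg, and in WT that of Fgg and Fgb, varied between libraries. Steap4 averaged 1450 ± 367 CPM per kb in FMT-Con A and 2180 ± 509 in Con A livers, and was the lowest of the 10 in WT livers at 19.3 ± 1.95. Crp averaged 345 ± 86.6 and Cp 243 ± 13.6 in FMT-Con A livers. In Con A livers Crp averaged 518 ± 81.9, Cp 475 ± 136 and Itih3 600 ± 103, within each other's spread. Apcs and Lrg1 lay close to each other, at 1760 ± 325 and 1650 ± 465 in FMT-Con A livers and 1360 ± 273 and 1560 ± 172 in Con A livers. The exons of Cp cover 9566 bases, of which its longest coding transcript uses 4564, so its level per kilobase depends on the isoform. Per kilobase of the longest coding transcript Itih3 was the lowest of the 10 in Con A livers, at 729, with Cp at 996 and Crp at 1050, and Cp was the lowest in FMT-Con A livers, at 510.

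The genes whose profile over the 9 libraries was nearest to each of the 10, by the root mean square difference of centred log2 CPM among 9567 genes, are given as a description. Nearest to Fga was Socs3 (0.225), to Fgb and Itih4 the haem-binding acute-phase gene Hpx (0.115 and 0.159), and to Fgg and Lrg1 the gene Litaf (0.105 and 0.148). Fgg and Lrg1 were each other's second nearest (0.154), and Fgb was second nearest to Itih4 (0.179). Nearest to Itih3 was Dpp9 (0.107), to Apcs Prg4 (0.201), to Crp Ddx28 (0.0881), to Cp Parp11 (0.175) and to Steap4 the guanylate-binding protein gene Gbp2b (0.287). No member stood among the 3 nearest of Fga, Fgb, Itih3, Apcs, Crp, Cp or Steap4. Reads of an overlapping gene could enter 2 of the counts if strand was not used. The exons of Fgg share 115 bases with Gm30097 on the other strand, which had 46 counts over the 9 libraries, and those of Cp share 108 bases with Hps3.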

How the data were processed

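Polyadenylated RNA of mouse liver, extracted with Trizol, was sequenced as paired reads of 150 bases on an Illumina HiSeq, per the labels' protocols. The authors deposited raw read counts per gene, 1 file per library. The submitters' processing notes name CASAVA, HISAT2, featureCounts and GRCm38 (mm10). Tool versions, the annotation release and the strand setting are not given in the sources used here.

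Symbols, positions and exon lengths came from GENCODE vM21, which named 52083 of the 55359 Ensembl identifiers. The 10 genes and all gene and marker lists were chosen with earlier results of these data known. One edgeR 4.0.16 model (R 4.3.3) held the 9 libraries, with TMM factors, filterByExpr (minimum count 10, minimum total 15) and two-sided quasi-likelihood F tests, adjusted by Benjamini-Hochberg over 17704 genes. Log2 fold changes use a prior count of 0.125, and their SE was derived from F. The code was tested on simulated data. Every member was named, and of other lists at most 4 called genes of lowest p per comparison, with exceptions stated; 1 listed gene that the rule names is not reported here. Depth was 20513051 to 29466806 counts per library, and counting intervals cover counting error only. Alternatives were other size factors, library totals, DESeq2 1.42.0, no filter, 2 groups alone, a replicate block, mitochondrial or muscle genes left out, and libraries left out. Counts of the lists under those settings, and chain shares and the Crp to Apcs ratio per kilobase of the longest coding transcript, were added after seeing the data.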

Additional observations from a re-analysis of the deposited data

How the results depend on the processing

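In Con A vs WT all 140 recomputed member values, and in FMT-Con A vs WT all 150, kept their direction and call. In FMT-Con A vs Con A 128 of 150 did. There, members called (1) became 2 with library totals, 3 with DESeq2, and 0 with these 2 groups alone or without FMT-Con A 1 and 3, and 0 to 3 with 1 library left out. All genes called (2981) became 1156 with 2 groups alone, 99 without FMT-Con A 1 and 3, and 664 (without FMT-Con A 1) to 4053 with 1 library left out, with 778 without FMT-Con A 3 and 812 without Con A 1. With 1 library left out, Con A vs WT called 9937 to 11637 of all genes and FMT-Con A vs WT 9060 to 10678, and 6957 without FMT-Con A 1 and 3, where the lone library is assumed to vary like the others. Estimates of FMT-Con A vs Con A that changed sign, none of them called, were Fga 0.02, Fgb 0.09 and Itih4 0.14 with library totals, and Fga 0.18, Fgb 0.17 and Itih4 0.28 without FMT-Con A 1 and 3. With 1 library left out, Itih4 ran from -0.26 to 0.19, Fgg from -0.14 to 0.17 and Lrg1 from -0.15 to 0.23, and the Fgb share difference from -1.13 to 0.162 points. Library totals moved the share of calls that were higher to 65.4% from 37.2%. The causes were not tested. Deviations of same-numbered libraries of 2 groups correlated at -0.216 to 0.344, and those of differently numbered libraries at -0.432 to 0.362. The ranges overlap, and the numbers were not taken as pairing the libraries. With a replicate block 10, 1 and 10 members were called in Con A vs WT, FMT-Con A vs Con A and FMT-Con A vs WT, as without it.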
